A study of Rattus norvegicus with 20 samples.

Results

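Binding of the NF-kB subunit p65 to promoters was compared between the liver remnant 6 hours after partial hepatectomy and the lobes removed at the operation, in rats that had been fed ethanol. The arrays were chosen by their titles: 4 arrays of ethanol-fed liver at 6h and 3 arrays of ethanol-fed liver at 0h, 7 of the 20 arrays of the series. All 7 came from wild-type male Sprague Dawley rats, 8 to 10 weeks old and weighing 275 to 300 g, whose liquid diet for 5 weeks drew 36% of its calories from ethanol. The 6h arrays held the remnant (right median, right lateral and caudate) lobes left after removal of 70% of the liver, and the 0h arrays held the removed left lateral and median lobes. The same contrast in pair-fed rats, whose diet had carbohydrate in place of ethanol, had 4 arrays at 6h and 3 at 0h. The time was taken from title and description, because the source field of all 7 arrays reads 0h and replicate 1. Chromatin was precipitated with a polyclonal antibody against p65 and hybridised to NimbleGen promoter arrays, a method known as ChIP-chip.

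NF-kB is held in the cytoplasm by inhibitor proteins of the IkB family until a kinase complex, switched on by tumour necrosis factor (TNF) or interleukin 1, marks these inhibitors for destruction. The freed dimers, most often p65 with p50, enter the nucleus and bind short DNA elements at genes of chemokines, cytokines, adhesion molecules, survival factors and the pathway's own inhibitors. In the hepatectomised liver, TNF and interleukin 6 released by Kupffer cells are known to prime hepatocytes for division, and long ethanol intake is known to hamper this regrowth.

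Promoter signal is the log2 ratio of p65-bound over reference DNA, averaged over 1 window of 500 bp in each of 14540 tiled promoters, so that 1 unit is a doubling of the ratio. The direction of the deposited ratio was not stated, and its sign was turned because the authors' own peaks lay at negative values. On that basis the direction used here is likely but not settled. The windows were the highest in the turned direction: with the deposited sign their values would be mirrored, while windows chosen in that direction gave 7 calls, none of them among those described below. The identifiers in the names of the peak lists have 4 forms, read here as array runs although no label says so. All 4 arrays of 6h shared 1 form, 0h replicates 1 and 3 another, and 0h replicate 2 had that of 2 arrays of 1h. No run held both times, so time after surgery, array run and removed against remnant lobe cannot be told apart. Replicate 2 of 0h also stood apart in its values: its probes had a standard deviation (SD) of 0.529, against 0.257 and 0.272 on the other arrays of 0h. It correlated across probes at r = 0.399 with 0h replicate 1 and at 0.049 with 0h replicate 3. With the 1h arrays of its own slide identifier r was 0.760 (ethanol diet) and 0.757 (carbohydrate diet). The number that ends the name of its peak list, read here as an animal number, is also that of this ethanol-diet 1h array. The 4 arrays of 6h correlated with each other at r from 0.391 to 0.551. The labels do not say which animal each array came from, so the p-values rest on variation among arrays, part of which may be technical. The number of arrays limited the precision to a median standard error (SE) of 0.133 for a difference. Arrays of bound DNA measure no expression, so the labelled tissue could not be checked against its markers.

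At 6h, p65 signal was higher than at 0h over a small set of promoters rich in chemosensory receptor genes, and lower over a larger set that held none of them. Of 14540 promoters, 54 rose (0.371%) and 91 fell (0.626%) at an adjusted p under 0.05 (limma, Benjamini-Hochberg, two-sided). The rises lay between 0.40 and 0.85 and the falls between −0.43 and −1.53 on the log2 scale, against a median difference of −0.019 over all promoters. At an unadjusted p under 0.05 stood 3021 promoters, 1251 of them higher and 1770 lower, where 727 would be the 5% level. In all 145 promoters that passed, the 4 arrays of 6h and the 3 of 0h did not overlap. Such separation was common on these arrays, with 9.09% of all promoters entirely higher and 8.61% entirely lower at 6h.

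These calls rested on single arrays. With 0h replicate 2 left out, none passed in limma (1688 at an unadjusted p under 0.05), and the median difference of the promoters that rose was 0.49 in place of 0.53 and of those that fell −0.54 in place of −0.71. None passed either without 6h replicate 2 (2556 at an unadjusted p under 0.05) or 6h replicate 3 (2214), 2 passed without 0h replicate 1, 39 without 6h replicate 1, 79 without 6h replicate 4 and 1297 without 0h replicate 3. Quantile normalization turned the balance, with 451 rises and 386 falls. With array run as a term 72 promoters rose and 502 fell, and 29 of these 574 were among the 145. In that fit the name form of 0h replicates 1 and 3 was tied to the other forms only through 0h replicate 2. The 0h level, here and wherever array run is a term below, thus rests on that array. Run is not parted from time by it. The number that ends the names of the peak lists, read here as an animal number, is the same for 6h replicate 1 and 0h replicate 3. Between those arrays the rises had a median difference of 0.31 and the falls of −0.40, with a sign that follows from the groups not overlapping.

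The largest rise with or without a gene name was at a promoter shared by Pcdha6, Pcdha7, Pcdha8 and Pcdha9, clustered protocadherins that mediate adhesion between neurons. Its signal was 0.51, 0.72, 1.13 and 0.74 on the arrays of 6h, against −0.32, −0.06 and 0.14 on those of 0h. Every array of 6h lay above every array of 0h, and the difference was 0.85 (SE 0.20, limma adjusted p = 0.0355). With array run as a term it was 0.10 and did not pass. The window lay at chr18:29710735-29711141 in the coordinates of the files, whose build is not given in the sources used here, 979 bp downstream of the listed start of Pcdha8.

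Morf4l1, a chromodomain protein of histone acetylation and deacetylation complexes, had signals of 0.58, 0.50, 1.07 and 0.81 at 6h, against −0.25, −0.02 and 0.16 at 0h. The difference was 0.78 (SE 0.16, limma adjusted p = 0.0234), with 6h replicate 3 the highest array, and 0.37 with array run as a term. Mat2b, the regulatory subunit of the enzyme that makes S-adenosylmethionine, had 0.36, 0.82, 0.88 and 0.58 at 6h, against 0.06, −0.01 and −0.07 at 0h. Here the 3 arrays of 0h lay close to 0 and all 4 of 6h above 0.35, a difference of 0.66 (SE 0.16, limma adjusted p = 0.0403) that was 0.39 with array run as a term. Clca2, a regulator of calcium-activated chloride conductance, rose by 0.65 (SE 0.15, limma adjusted p = 0.0344), and Ly49s3, a lectin-like receptor of natural killer cells, by 0.64 (SE 0.14, limma adjusted p = 0.0344), although Ly49s3 stood at −0.21 where windows of 3 probes were allowed. With array run as a term Clca2 stood at 1.195 and passed, while Ly49s3 stood at 0.63 and did not.

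The other 5 of the 10 largest rises among promoters with a gene name were receptors for odours and pheromones. An unnamed promoter at chr1:756997-757307 had a difference of 0.74 too (SE 0.18, limma adjusted p = 0.0386). Vom2r73, a vomeronasal receptor, had signals of 0.46, 0.67, 0.78 and 0.39 at 6h, against −0.20, −0.43 and 0.15 at 0h. Its difference of 0.74 (SE 0.13) had the smallest adjusted p among them, 0.0156 in limma. Vom2r6 had 0.56, 0.63, 1.29 and 0.75 at 6h, against −0.04, −0.17 and 0.41 at 0h. In Vom2r6 the gap between the groups was narrow, between 6h replicate 1 and 0h replicate 3, and the difference was 0.74 (SE 0.18). The olfactory receptors Or6c1 and Or13c3c rose by 0.64 and 0.63 and the vomeronasal receptor Vom2r67 by 0.63, with adjusted p of 0.0403, 0.0235 and 0.0344 in limma. With array run as a term Vom2r73 and Vom2r67 still passed, at 0.83 and 0.84, and Or13c3c at 1. Vom2r6 and Or6c1 stood at 0.785 and 0.694 in that fit and did not pass.

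**Figure D1:**
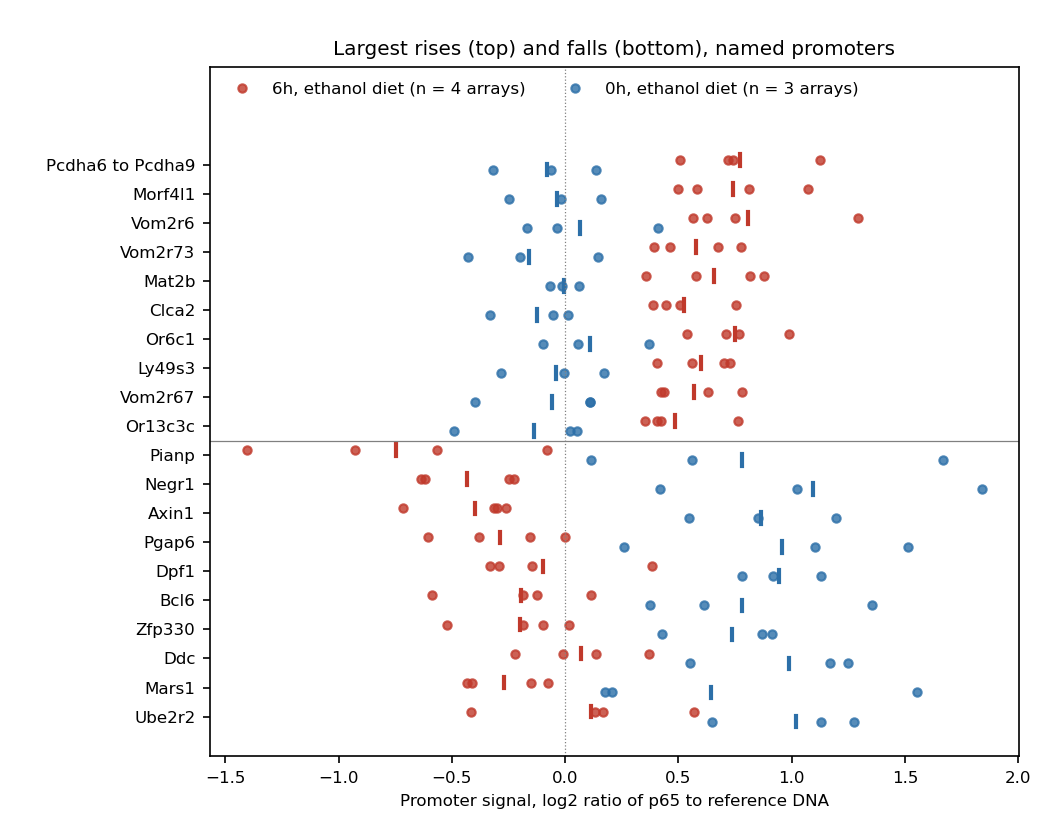
Promoter signal (log2 ratio of p65 to reference DNA) on each ethanol-diet array for the 10 largest rises, above the line, and the 10 largest falls, below it, among promoters with a gene name. Points are single arrays, 4 of 6h (red) and 3 of 0h (blue), and vertical bars are group means. Red and blue do not overlap in any of the 20 promoters, and 0h arrays spread widely in Pianp and Mars1, whose highest values of 1.67 and 1.55 come from 0h replicate 2.

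The largest falls were at Pianp and Negr1, both cell surface proteins of neurons. Pianp had signals of −0.57, −0.93, −1.41 and −0.08 at 6h, against 0.56, 1.67 and 0.11 at 0h. The difference was −1.53 (SE 0.32, limma adjusted p = 0.0278), and the highest array was 0h replicate 2. Negr1 had −0.23, −0.62, −0.63 and −0.25 at 6h, against 1.02, 1.84 and 0.42 at 0h, a difference of −1.53 (SE 0.28, limma adjusted p = 0.0156). Without 0h replicate 2 the differences were −1.08 for Pianp and −1.15 for Negr1.

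Axin1, the scaffold of the complex that destroys beta-catenin, had −0.31, −0.26, −0.72 and −0.30 at 6h, against 1.20, 0.85 and 0.55 at 0h. Its difference was −1.26 (SE 0.23, limma adjusted p = 0.0156). Without 0h replicate 2 it was −1.27 but did not pass (limma adjusted p = 0.0797), and with array run as a term it was −0.42. The promoter of Pgap6, an enzyme that acts on lipid-anchored surface proteins, lies near it on chromosome 10 (chr10:15383875-15384278 against chr10:15409696-15410096 for Axin1). Pgap6 had 0.00, −0.38, −0.61 and −0.15 at 6h, against 1.10, 1.51 and 0.26 at 0h, a difference of −1.24 (SE 0.25, limma adjusted p = 0.0227).

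Bcl6, a repressor of transcription best known from germinal centre B cells, had −0.12, −0.19, −0.59 and 0.12 at 6h, against 0.37, 1.36 and 0.61 at 0h. Its difference was −0.98 (SE 0.19, limma adjusted p = 0.0227) and −0.69 without 0h replicate 2. Dpf1, a chromatin remodelling subunit of neurons, fell by 1.04 (SE 0.20), the zinc finger protein Zfp330 by 0.93 (SE 0.18), Ddc, which makes dopamine and serotonin, by 0.92 (SE 0.23), and Ube2r2, a ubiquitin-conjugating enzyme, by 0.90 (SE 0.21), with limma adjusted p from 0.0227 to 0.0403. The differences of Dpf1, Zfp330 and Ddc were −0.49, −0.38 and −0.29 once array run was a term. Those of Pgap6 and Ube2r2 were −0.92 and −0.77 in that fit and did not pass. Pianp, Negr1, Bcl6 and Mars1 still passed there, at −1.134, −1.235, −1.057 and −1.19. With the window centred on the listed start Axin1 stood at 0.02, Pgap6 at 0.01, Zfp330 at 0.02 and Ddc at 0.04, and quantile normalization put Ddc at 0.01. A 1000 bp window put Zfp330 at 0.14. An unnamed promoter at chr2:197179082-197179357 fell by 0.93 (SE 0.22, limma adjusted p = 0.0386). Mars1, which loads methionine onto its transfer RNA, showed the strongest hold of 1 array: it had −0.15, −0.41, −0.43 and −0.08 at 6h, against 0.21, 1.55 and 0.18 at 0h. Its difference was −0.91 (SE 0.22, limma adjusted p = 0.0403), and −0.46 without 0h replicate 2, and 0.13 with the window chosen in the deposited direction.

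Promoter sequences are shown to set the base composition of promoters that rose beside that of promoters that fell. They are the 4 largest rises and the 4 largest falls whose window lay within 500 bp of the listed start and whose gene had an entry in the RefSeq promoter table (GRCr8). Or2ak4c, Kat8, Il3ra and Cyp4f1 lie beyond the 10 largest with a gene name and were added after their values were seen. Each is the 250 bases upstream of the start, 5′ to 3′ on the gene's strand, with CG dinucleotides in capitals. The promoters that rose come first:
Vom2r73: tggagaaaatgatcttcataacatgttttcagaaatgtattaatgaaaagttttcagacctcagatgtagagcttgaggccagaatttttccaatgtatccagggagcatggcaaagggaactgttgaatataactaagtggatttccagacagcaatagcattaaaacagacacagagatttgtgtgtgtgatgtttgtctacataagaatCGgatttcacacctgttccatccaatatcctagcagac
Mat2b: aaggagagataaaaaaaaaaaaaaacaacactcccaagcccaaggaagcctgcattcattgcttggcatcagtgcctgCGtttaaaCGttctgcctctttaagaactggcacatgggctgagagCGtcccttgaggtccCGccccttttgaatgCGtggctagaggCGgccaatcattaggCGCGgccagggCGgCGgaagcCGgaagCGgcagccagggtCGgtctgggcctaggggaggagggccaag
Or13c3c: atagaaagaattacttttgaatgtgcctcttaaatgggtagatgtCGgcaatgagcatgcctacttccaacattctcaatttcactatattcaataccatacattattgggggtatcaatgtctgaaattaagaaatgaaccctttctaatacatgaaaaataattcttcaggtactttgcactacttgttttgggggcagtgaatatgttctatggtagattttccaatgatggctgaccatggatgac
Or2ak4c: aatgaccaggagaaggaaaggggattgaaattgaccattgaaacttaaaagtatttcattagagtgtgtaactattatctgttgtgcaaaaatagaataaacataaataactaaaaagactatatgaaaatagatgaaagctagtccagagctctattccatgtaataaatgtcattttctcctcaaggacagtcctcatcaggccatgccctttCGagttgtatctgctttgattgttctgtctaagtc
The promoters that fell follow, with Kat8 a histone H4 acetyltransferase, Il3ra the alpha chain of the interleukin 3 receptor and Cyp4f1 a fatty acid hydroxylase of the cytochrome P450 family:
Mars1: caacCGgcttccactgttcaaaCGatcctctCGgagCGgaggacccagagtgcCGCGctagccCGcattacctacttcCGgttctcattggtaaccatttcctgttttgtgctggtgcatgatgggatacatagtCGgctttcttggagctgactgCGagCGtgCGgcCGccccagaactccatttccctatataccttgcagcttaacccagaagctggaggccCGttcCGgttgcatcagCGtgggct
Kat8: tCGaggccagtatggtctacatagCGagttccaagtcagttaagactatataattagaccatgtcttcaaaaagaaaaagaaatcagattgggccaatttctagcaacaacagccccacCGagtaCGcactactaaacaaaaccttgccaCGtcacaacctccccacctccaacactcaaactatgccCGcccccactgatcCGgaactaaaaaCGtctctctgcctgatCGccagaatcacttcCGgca
Il3ra: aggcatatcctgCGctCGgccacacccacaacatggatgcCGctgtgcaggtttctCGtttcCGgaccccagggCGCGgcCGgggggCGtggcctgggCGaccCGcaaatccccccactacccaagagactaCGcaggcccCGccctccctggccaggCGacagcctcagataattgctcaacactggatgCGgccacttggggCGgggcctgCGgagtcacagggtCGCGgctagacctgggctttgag
Cyp4f1: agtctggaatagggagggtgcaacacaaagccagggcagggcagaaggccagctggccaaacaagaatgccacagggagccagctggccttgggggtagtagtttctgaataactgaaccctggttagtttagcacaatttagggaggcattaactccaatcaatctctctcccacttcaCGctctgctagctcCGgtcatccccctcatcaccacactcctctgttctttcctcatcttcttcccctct
The stretches lie at chr14:959445-959694 (minus strand) for Vom2r73, chr10:25622770-25623019 (minus) for Mat2b, chr5:72074793-72075042 (minus) for Or13c3c and chr10:43902065-43902314 (plus) for Or2ak4c. Those that fell lie at chr7:65023754-65024003 (minus) for Mars1, chr1:191954577-191954826 (plus) for Kat8, chr12:21437251-21437500 (minus) for Il3ra and chr7:12672554-12672803 (minus) for Cyp4f1, all in GRCr8. The 3 receptor promoters held 1 CG dinucleotide each and 34.4% to 37.6% of G and C bases, and Mat2b held 13 and 56.8%. The 4 that fell held 2 (Cyp4f1) to 19 (Il3ra) CG dinucleotides and 47.2% to 67.2% of G and C bases. The NF-kB motif GGNNTTTCC, searched on both strands, was in none of the 8, and 5.2% of the 33469 promoters of the table held it in the same 250 bases. The stretches shown are not the windows, whose middles lay from −316 bp (Mat2b) to 454 bp (Or2ak4c) of the start. Only 1 form of the motif was searched, and at that share nothing is read from its absence.

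Olfactory and vomeronasal receptors, expressed by sensory neurons of the nose and largely silent in liver, made up 24 of the 54 promoters that rose. They were 44.4% of the rises and 9.08% of all promoters (1320 of 14540), and none of them fell. This grouping was made by gene name after the rises were seen, so it was not tested. Of 1161 olfactory receptor promoters 16 rose (1.38%), and of 159 vomeronasal receptor promoters 8 rose (5.03%), beside 0.371% of all promoters. The shift was not limited to these 24. The median difference was 0.17 over all olfactory receptors, 963 of which were higher, and 0.24 over all vomeronasal receptors, 140 of which were higher, against −0.04 over the other 11873 named promoters. These medians kept their sign with arrays scaled to the same spread (0.16, 0.23 and −0.03), but under quantile normalization that of the other named promoters was 0.00 beside 0.21 and 0.28. The shift was not particular to the ethanol diet. In the carbohydrate diet the medians were 0.37 for olfactory receptors, 0.30 for vomeronasal receptors and 0.14 for the other named promoters.

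The median signal of the olfactory receptor promoters was 0.33, 0.32, 0.47 and 0.35 on the arrays of 6h, against 0.19, 0.19 and 0.25 on those of 0h. That of the vomeronasal receptors was 0.34, 0.38, 0.53 and 0.34 at 6h, against 0.20, 0.05 and 0.26 at 0h. All arrays of 6h were above all arrays of 0h in both families. Over the other named promoters the values were 0.17, 0.12, 0.21 and 0.23 at 6h, against 0.18, 0.33 and 0.16 at 0h, and the groups overlapped. Without 0h replicate 2 the median differences were 0.15 for olfactory receptors, 0.18 for vomeronasal receptors and 0.01 for the other named promoters.

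**Figure D2:**
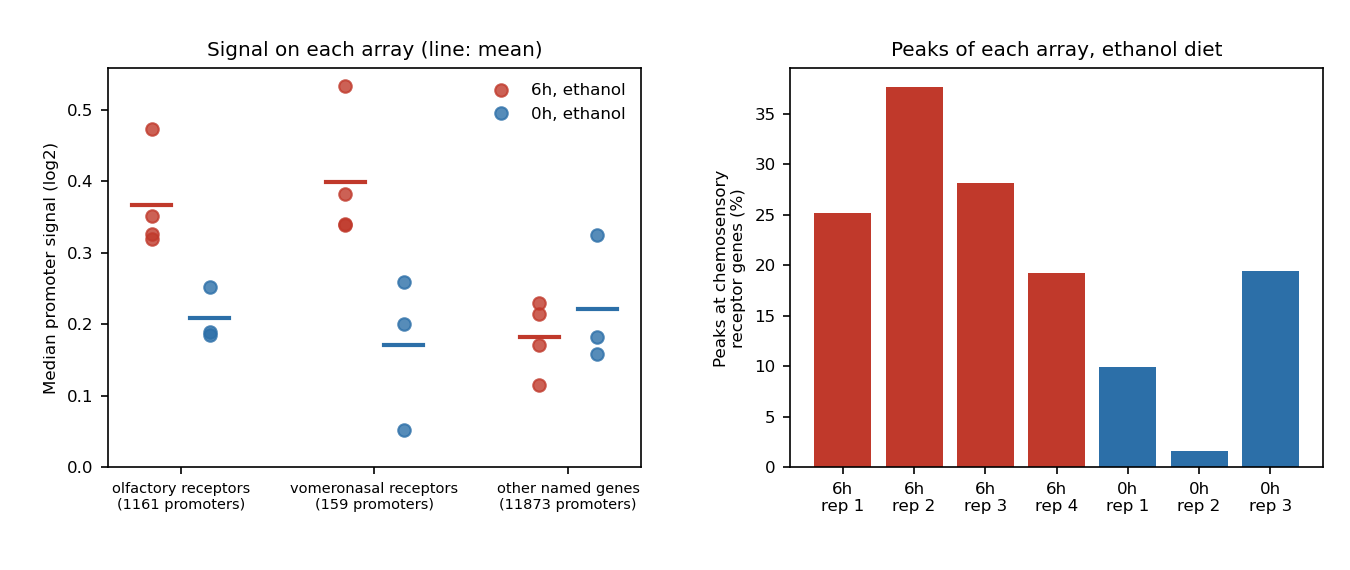
Left, the median promoter signal (log2) of olfactory receptor, vomeronasal receptor and other named promoters on each array of 6h (red) and 0h (blue), with the mean over arrays as a line. Right, the percentage of each array's peaks that the authors' list assigns to an olfactory or vomeronasal receptor gene, from 19.3% to 37.6% at 6h and from 1.59% to 19.5% at 0h.

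Base composition moved with the comparison. GC content (G and C bases in the RefSeq promoter, 250 bases before to 50 after the start) was known for 10632 of 13193 named promoters. In the decile with the lowest GC content, up to 39.3%, the median difference was 0.17, and it was 0.08 in the next decile. The 982 olfactory receptor promoters with a value had a median GC content of 35.3% (upper quartile 39.3%). The median was 37.0% (upper quartile 39.8%) in 102 of 159 vomeronasal receptor promoters. Most of these lie in the lowest decile, so the receptor shift and the low-GC shift are not separate observations. From the fifth decile upward it lay between −0.07 and −0.06. Across these promoters the difference correlated with GC content at r = −0.295, and at −0.249 without 0h replicate 2, as a description over promoters that share arrays. In the carbohydrate diet this r was −0.284. On single arrays, signal correlated with GC content at r = −0.226, −0.275, −0.301 and −0.182 at 6h, against 0.104, 0.176 and −0.111 at 0h. All 4 arrays of 6h lay below the 3 of 0h. Of the promoters that passed, 34 of 54 that rose and 71 of 91 that fell had a GC value, under 80% of each set, so a check of those sets alone is void. The part of base composition in the changes was not tested.

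**Figure D3:**
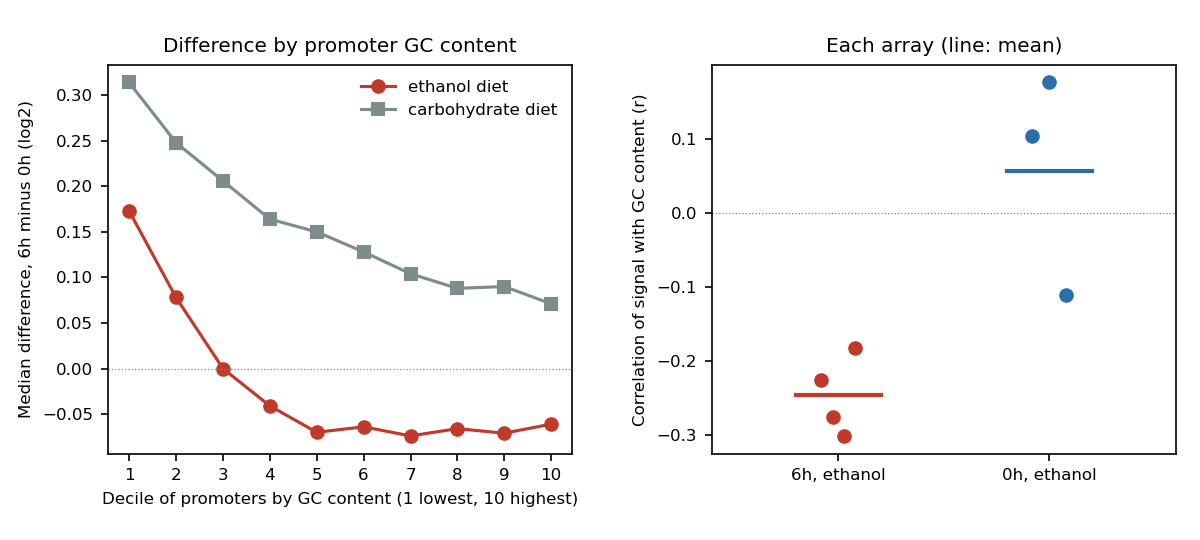
Left, the median difference between 6h and 0h (log2) in each decile of promoters by GC content, for the ethanol diet (red) and the carbohydrate diet (grey). Right, the correlation of promoter signal with GC content on each ethanol-diet array, with the mean as a line. The ethanol curve falls to −0.07 by the fifth decile, and the 4 arrays of 6h lie between −0.301 and −0.182.

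Without array run as a term, no promoter of the 4 lists of NF-kB genes passed. These lists held 15 promoters of subunits, inhibitors and kinases, 17 of target chemokines and adhesion molecules, 19 of target cytokines and enzymes and 14 of target survival genes. At an unadjusted p under 0.05 in limma there were none higher and 3 lower among subunits, inhibitors and kinases, 1 and 2 among chemokines and adhesion molecules, none and 4 among cytokines and enzymes, and 1 and 5 among survival genes. Over all promoters 1251 were higher and 1770 lower at that level. These are 20.8% of all promoters, beside 20.0%, 17.6%, 21.1% and 42.9% of the lists in the same order. The median differences of the lists were −0.05, −0.08, −0.12 and −0.10, beside −0.019 over all promoters, and without 0h replicate 2 they were −0.01, −0.04, −0.01 and −0.07 beside 0.020. With array run as a term Tab1, Irf1 and the promoter of Flot1 and Ier3 passed, at −0.97, −1.19 and −1.35. Nfkbiz, Cxcl2, Cxcl3, Ltb and Xiap did not pass in that fit, whose 0h level rests on 0h replicate 2.

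Within the pathway, Tab1, an adaptor of the kinase that activates NF-kB, had the smallest p. It had 0.04, −0.03, −0.28 and 0.12 at 6h, against 0.16, 1.38 and 0.00 at 0h, so that 0h replicate 2 alone stood out. The difference of −0.55 (SE 0.21, limma adjusted p = 0.129) did not pass and was −0.12 without that array. Nfkbiz, an inducible nuclear IkB protein, had −0.21, −0.04, −0.01 and −0.09 at 6h, against 0.33, 0.11 and 0.10 at 0h, with no overlap. Its difference of −0.27 (SE 0.11, limma adjusted p = 0.155) did not pass. Nfkbia, the classical inhibitor whose gene NF-kB switches on, had 0.07, 0.06, 0.35 and 0.23 at 6h, against 0.36, 0.20 and 0.48 at 0h. The groups overlapped, and the difference was −0.17 (SE 0.18, limma adjusted p = 0.633). Map3k8, a kinase that NF-kB precursor p105 holds inactive, is in none of the lists and was picked out after its values were seen. It had −0.18, −0.19, −0.24 and −0.41 at 6h, against 0.37, 0.65 and 0.09 at 0h. Map3k8 fell by 0.62 (SE 0.13, limma adjusted p = 0.029), with no overlap, and did not pass without 0h replicate 2 (−0.48, limma adjusted p = 0.207). Rela, which encodes p65, differed by −0.05 and Ikbkb, a subunit of the IkB kinase, by 0.01.

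Among the chemokines, Cxcl2, which draws neutrophils, had 0.25, 0.17, 0.53 and 0.03 at 6h, against −0.09, −0.34 and 0.07 at 0h. Its difference of 0.36 (SE 0.14, limma adjusted p = 0.128) did not pass, nor did that of its neighbour Cxcl3, at −0.40 (SE 0.15, limma adjusted p = 0.139). Irf1, a transcription factor of interferon responses, had 0.07, −0.27, 0.00 and 0.09 at 6h, against 0.17, 1.11 and 0.32 at 0h. Irf1 had the smallest p of the cytokine and enzyme list, with a difference of −0.56 (SE 0.16, limma adjusted p = 0.074) that was −0.27 without 0h replicate 2. Ltb, lymphotoxin beta, differed by −0.49 (SE 0.17, limma adjusted p = 0.102).

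Il6, the cytokine that primes hepatocytes, had 0.24, 0.36, 0.05 and 0.44 at 6h, against 0.61, 0.50 and 0.59 at 0h. All arrays of 6h were below those of 0h, but the difference of −0.29 (SE 0.12, limma adjusted p = 0.174) did not pass. The promoter shared by Lta and Tnf had 0.01, −0.09, −0.07 and 0.15 at 6h, against −0.04, 0.54 and −0.08 at 0h, and a difference of −0.14 (SE 0.13, limma adjusted p = 0.539). Among survival genes, the promoter of Flot1 and the early response gene Ier3 had the smallest p, with a difference of −0.79 (SE 0.24, limma adjusted p = 0.0772), and −0.37 without 0h replicate 2. Xiap, an inhibitor of caspases, had −0.07, −0.06, −0.18 and −0.03 at 6h, against 0.17, 0.17 and 0.27 at 0h, a difference of −0.29 (SE 0.10, limma adjusted p = 0.106). Sod2, the mitochondrial superoxide dismutase, went the other way, with 0.46, 0.56, 0.76 and 0.63 at 6h, against 0.16, 0.21 and 0.17 at 0h. In Sod2 the groups were far apart for their spread, yet the difference of 0.43 (SE 0.15, limma adjusted p = 0.111) did not pass.

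**Figure D4:**
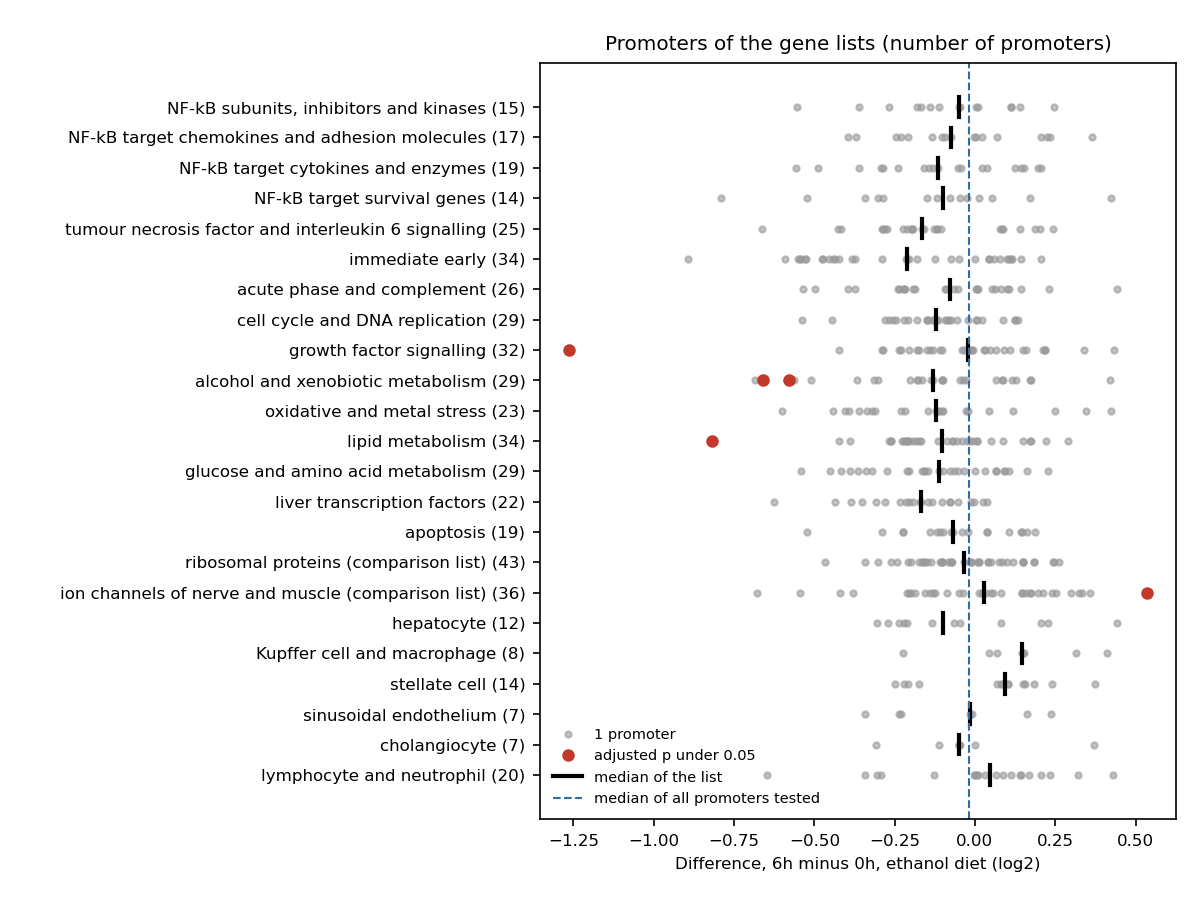
Difference between 6h and 0h in the ethanol diet (log2) for every measured promoter of the gene lists, with the number of promoters of each list beside its name. Grey points are promoters that did not pass, red points the 5 with an adjusted p under 0.05, black bars list medians and the dashed line the median of all promoters, −0.019. Most lists straddle 0, and the immediate early list has the lowest median, −0.21.

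Of the other lists, those of alcohol and xenobiotic metabolism, lipid metabolism, growth factor signalling and the comparison list of ion channels held promoters that passed. Ahr, the receptor that senses aromatic hydrocarbons, had −0.07, 0.16, 0.22 and −0.04 at 6h, against 0.62, 0.94 and 0.39 at 0h. It fell by 0.58 (SE 0.14, limma adjusted p = 0.0403), but stood at 0.01 with the window centred on the listed start. Ephx1, the microsomal epoxide hydrolase, had −0.08, −0.26, −0.22 and −0.11 at 6h, against 0.43, 0.91 and 0.14 at 0h, and fell by 0.66 (SE 0.14, limma adjusted p = 0.0278). These were 2 of 29 promoters of alcohol and xenobiotic metabolism, beside falls at 0.626% of all promoters. At an unadjusted p under 0.05, 1 of the 29 was higher and 8 were lower. That is 31.0% of the list, beside 20.8% of all promoters. The median of that list was −0.13, and −0.04 without 0h replicate 2.

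Elovl6, which lengthens saturated fatty acids, had −0.07, −0.36, −0.41 and −0.22 at 6h, against 0.42, 1.27 and −0.02 at 0h. It fell by 0.82 (SE 0.20, limma adjusted p = 0.0403), the only one of 34 promoters of lipid metabolism to pass, and its difference was −0.47 without 0h replicate 2. Axin1, above, was the only one of 32 in growth factor signalling. Over all promoters 0.626% fell and 0.371% rose. Gabra2, a subunit of the receptor for the inhibitory transmitter GABA, rose by 0.54 (SE 0.13, limma adjusted p = 0.0386), the only one of 36 ion channels of nerve and muscle. Its difference was −0.27 with the window centred on the listed start and −0.22 with the window chosen in the deposited direction.

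Without array run as a term none of 34 immediate early promoters passed in limma. At an unadjusted p under 0.05, 14 were lower and none higher. That is 41.2% of the list, beside 20.8% of all promoters in either direction. Dusp6, a phosphatase of the kinase ERK, differed by −0.54 and Sgk1, a stress-induced kinase, by −0.54, with limma adjusted p of 0.071 and 0.0845, and without 0h replicate 2 these differences were −0.31 and −0.24. With array run as a term they were −0.753 and −0.985, and Sgk1 passed. The median of that list was −0.21, but −0.03 without 0h replicate 2. In the list of TNF and interleukin 6 signalling none of 25 passed without array run as a term. None was higher and 6 were lower at an unadjusted p under 0.05, 24.0% of the list. Socs3, the feedback inhibitor of interleukin 6, differed by −0.43 (limma adjusted p = 0.099) and the TNF receptor Tnfrsf1a by −0.66 (limma adjusted p = 0.106). Without 0h replicate 2 they stood at −0.18 and −0.19, and with array run as a term they passed, at −0.82 and −1.08.

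Among 26 acute phase and complement promoters the smallest p belonged to Hp, haptoglobin, at −0.50 (limma adjusted p = 0.107), and Fga, fibrinogen alpha, at −0.40 (limma adjusted p = 0.155). Among 29 cell cycle promoters it belonged to that of Foxm1, a driver of mitosis, at −0.54 (limma adjusted p = 0.0697), and that of Cdk2, at −0.45 (limma adjusted p = 0.103). Hspa5, the chaperone BiP, came nearest to passing in the stress list, at −0.44 (limma adjusted p = 0.0541), before Keap1, the sensor of oxidants, at −0.60 (limma adjusted p = 0.0988). In glucose and amino acid metabolism Cbs differed by −0.45 and Otc, of the urea cycle, by −0.39, with limma adjusted p of 0.101 and 0.102. The liver transcription factor Hhex differed by −0.63 (limma adjusted p = 0.122), and the promoter of the apoptosis gene Bak1 by −0.29 (limma adjusted p = 0.214). The ribosomal protein genes Rpl11 and Rps27a differed by −0.47 and 0.24 (limma adjusted p = 0.0967 and 0.158). None of these promoters passed, and with array run as a term Cbs alone of them did, at −0.64. At an unadjusted p under 0.05 there was 1 higher and 3 lower in the acute phase list, and none and 5 in the cell cycle list. In the same order there were 2 and 6 among 23 stress promoters, and none and 6 among 29 of glucose and amino acid metabolism. Among 22 liver factors there were none and 3, among 19 apoptosis promoters none and 2, and among 43 ribosomal protein promoters 1 and 3. These were 34.8% of the stress list, beside 20.8% of all promoters. In the other lists of this paragraph they were 9.3% (ribosomal proteins) to 20.7% (glucose and amino acid metabolism).

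Promoters of cell type marker genes also had no member that passed in limma. Medians were −0.10 over 12 hepatocyte markers, 0.15 over 8 of Kupffer cells and macrophages, 0.09 over 14 of stellate cells, −0.02 over 7 of sinusoidal endothelium, −0.05 over 7 of cholangiocytes and 0.05 over 20 of lymphocytes and neutrophils. At an unadjusted p under 0.05, 1 hepatocyte marker was higher and 2 lower, 2 macrophage and 2 stellate markers were higher, 1 cholangiocyte marker was higher, 2 leukocyte markers were higher and 2 lower, and none of the endothelial markers was either. They were 25.0% of hepatocyte, 25.0% of macrophage, 14.3% of stellate, 14.3% of cholangiocyte and 20.0% of leukocyte promoters, beside 20.8% of all promoters. The smallest p in the first 4 of these lists belonged to F2 (−0.30) and Hpx (0.44), Cd163 (0.41) and the C1qa and C1qc promoter (0.31), Vim (0.38) and Col3a1 (0.24), Cdh5 (−0.34) and Fcgr2b (−0.24), in the same order of cell types. Of the cholangiocyte markers Spp1, osteopontin, differed by 0.37 (limma adjusted p = 0.0584), while the list's other promoters were at or below 0. Leukocyte markers ranged from −0.65 to 0.43. These are differences in bound signal at marker promoters and count no cells.

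The authors' peak lists gave 4023, 3602, 5605 and 5303 peaks on the arrays of 6h, against 3457, 5907 and 4634 on those of 0h. The mean was 4633 ± 971 at 6h (SD, n = 4) and 4666 ± 1225 at 0h (SD, n = 3). The difference of −32.75 peaks lay far within the spread between arrays (exact permutation test, two-sided, p = 0.971, where 0.0571 is the smallest p these arrays allow). Peaks within 1000 bp of the listed start made up 43.2% ± 1.96 of the peaks at 6h (SD, n = 4) and 43.3% ± 4.03 at 0h (SD, n = 3). Median peak width was 554 to 656 bp at 6h and 469 to 550 bp at 0h, with no overlap, and its difference of 82.25 bp had the smallest p allowed (exact permutation test, 0.0571). Chemosensory receptor genes held 27.6% ± 7.66 of the peaks at 6h and 10.4% ± 8.95 at 0h, and here the groups overlapped (exact permutation test, p = 0.114). These are among 8 measures of the peak lists, none of which could reach a p under 0.05.

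On all 4 arrays of 6h and on no array of 0h, 217 genes had a peak, and on all 3 arrays of 0h and no array of 6h, 147 genes did. A further 54 genes had a peak on all 7 arrays, out of 11510 genes with a peak on any. With only peaks of a false discovery rate (FDR) up to 0.05, the first count was 87 and the second 15. Leaving out 1 array in turn gave 255 to 590 genes bound at 6h alone and 156 to 586 at 0h alone, both counts highest without 0h replicate 3. Fewer arrays then have to meet the rule, so these counts can only stay or rise. The first count passed 1.5 times its value also without 6h replicates 1 (326) and 2 (339), and the second also without 6h replicate 4 (230), 0h replicate 1 (353) and 0h replicate 2 (300.0).

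Genes with peaks at 6h alone were in 92 cases olfactory and in 13 cases vomeronasal receptors, 48.4% of the 217, against 11.4% of all genes with a peak. Among the 10 with the highest mean peak score, the authors' own measure of peak height, stood Vom2r65, Vom2r5, Vom2r6, Vom2r57, Or4k15, Or7g33, Or6c33, Or6c35d, Pcdha9 and Tgap1. Vom2r65 led with scores of 0.78, 0.78, 1.03 and 0.68 on the arrays of 6h, yet its promoter window differed by −0.01 (SE 0.12), and by 0.53 with arrays scaled to equal spread, 0.59 with quantile normalization and 0.73 where windows of 3 probes were allowed. Tgap1 had scores of 0.53, 0.73, 1.02 and 0.57, and a promoter difference of 0.56 (SE 0.18, limma adjusted p = 0.0846). Or4k15, Or7g33, Vom2r6 and the Pcdha9 promoter were also among the promoters that rose. Of the 216 genes with a promoter window, 11 windows rose and none fell, beside 0.371% and 0.626% of all promoters. Peaks and windows come from the same arrays, so this direction was largely set by the choice of genes.

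None of the 147 genes with peaks at 0h alone was a chemosensory receptor. The highest mean peak scores were those of Lbx1, Lix1l, Ccdc97, Tbc1d20, Axin1, Ciz1, Cyp2d4, Psmd12, Pcgf1 and Tlcd5. Lbx1, a homeobox factor of muscle and spinal cord development, had scores of 1.15, 0.77 and 0.49 on the arrays of 0h. Its best peak lay 890 bp downstream of the start, and its promoter fell by 0.71 (SE 0.18, limma adjusted p = 0.0403). That difference was −0.22 once array run was a term, 0.00 with the window centred on the listed start and 0.24 with a 1000 bp window. Axin1 had scores of 1.11, 0.71 and 0.41. Psmd12, a subunit of the proteasome lid, had 0.77, 1.00 and 0.40, and its promoter fell by 0.88 (SE 0.18, limma adjusted p = 0.0245). Pcgf1, a Polycomb protein, had 0.64, 1.13 and 0.38 and a promoter fall of 0.86, and Tlcd5 had 0.53, 1.08 and 0.52 and a fall of 0.74.

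Of the rest, Ciz1, which binds a cell cycle inhibitor, had scores of 0.35, 1.52 and 0.35, with 0h replicate 2 the highest. Its promoter difference of −0.20 (SE 0.14, limma adjusted p = 0.424) did not pass, nor did those of Tbc1d20 (−0.71, 0.0601), Ccdc97 (−0.64, 0.0899), the promoter shared by Lix1l (−0.41, 0.128) and the cytochrome P450 gene Cyp2d4 (0.12, 0.705), each given with its limma adjusted p. Of the 145 genes of this set with a promoter window 18 fell and none rose, beside 0.626% and 0.371% of all promoters. Here too the direction was largely set by choosing the genes on the same arrays. Bcl6 and Ahr, described above, had peaks on all 3 arrays of 0h and none of 6h as well.

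The 10 highest of the 54 genes with peaks on all 7 arrays were Vapb, Gpn1, Ube2r2, Or2y15, Scap, Ado, Bcas2, Epb41l3, Eloa2l and Hpse. Vapb, a membrane protein of the endoplasmic reticulum, had scores of 1.24, 1.14, 0.72 and 1.25 at 6h, against 0.49, 0.89 and 1.00 at 0h, and a promoter difference of 0.27 (SE 0.17, limma adjusted p = 0.383). Scap, the escort of the sterol-sensing SREBP factors, had 0.46, 0.64, 0.60 and 0.71 at 6h, against 0.44, 1.14 and 0.80 at 0h. In both genes the groups overlapped. Ube2r2 had a peak on all 7 arrays, while its promoter window fell.

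A peak on at least 2 arrays of 6h was listed for 6 of 17 chemokine and adhesion genes (35.3%), 4 of 20 cytokine and enzyme genes (20.0%), 3 of 14 survival genes (21.4%) and 2 of 15 pathway genes (13.3%), beside 30.2% of all 14275 genes with a promoter. A peak on at least 2 arrays of 0h was listed for 2, 2, 1 and 3 of them (11.8%, 10.0%, 7.1% and 20.0%), beside 19.7% of all genes. Ccl7 was the only listed target with a peak on all 4 arrays of 6h, and Ccl5 and Il6 were those with a peak on all 3 arrays of 0h, beside 6.74% and 4.01% of all genes. No gene of these 4 lists belonged to the 217 or to the 147, which are small shares of all genes, so nothing is read from these counts. A requirement of 2 arrays is easier to meet with 4 arrays than with 3, so the shares of 6h and 0h are not set against each other.

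The same contrast in the carbohydrate diet, on other arrays, had 2705 rises (18.6%) and 294 falls (2.02%) of 14540. With arrays scaled to equal spread there were 1878 and 907, with quantile normalization 2686 and 700, and with array run as a term 18 and 34. The 2999 calls were 1084 without carbohydrate 0h replicate 1, 507 without 0h replicate 2 and 1928 without 6h replicate 4. All 54 promoters that rose in the ethanol diet were higher at 6h in the carbohydrate diet too, and 42 of them (77.8%) passed there. Of the 91 that fell, 84 were lower and 27 (29.7%) passed, and none passed in the opposite direction. The median carbohydrate difference was 0.49 over the promoters that rose and −0.32 over those that fell, against 0.147 over all promoters. As the median over all promoters is above 0, a higher value at 6h was common in this diet. Axin1 differed by −1.001 in the carbohydrate diet (limma adjusted p = 0.00372), and the Pcdha promoter by 0.97 (limma adjusted p = 0.00194). Over all promoters the differences in the 2 diets correlated at r = 0.6, a description over promoters that share base composition and position on the array. The carbohydrate arrays of 6h also came from remnant lobes and from other runs than those of 0h.

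**Figure D5:**
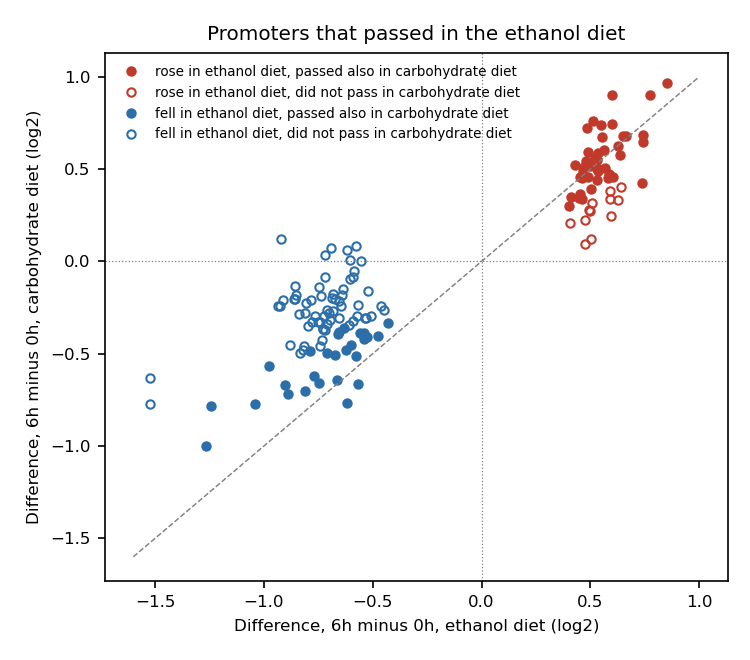
Difference between 6h and 0h (log2) in the ethanol diet, along the horizontal axis, and in the carbohydrate diet, along the vertical axis, for the 145 promoters that passed in the ethanol diet. Filled points passed also in the carbohydrate diet, open points did not, and the dashed line marks equal differences. The 54 rises (red) lie near the line, with medians of 0.53 and 0.49, while most of the 91 falls (blue) lie above it, with medians of −0.71 and −0.32.

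The difference between the diets was itself tested as an interaction, and no promoter passed in limma (0%), with a smallest adjusted p of 0.293. At an unadjusted p under 0.05 stood 1954 promoters, 1886 with a lower change in the ethanol diet and 68 with a higher one. The median of this difference over all promoters was −0.169. The smallest p belonged to the promoter of Cfap119 and Rnf40, with 0.14, −0.07, 0.46 and 0.07 at 6h, against −0.05, 0.79 and −0.11 at 0h in the ethanol diet. Its change was −0.06 in the ethanol diet and 1.03 in the carbohydrate diet, a difference of −1.09 (SE 0.24, limma adjusted p = 0.293). Trim21, an intracellular antibody receptor, changed by −0.12 against 0.66 (difference −0.79, SE 0.18), and the promoter of Enthd1 and Grap2 by −0.01 against 0.74 (difference −0.75, SE 0.18), both with the same adjusted p. Without carbohydrate 0h replicate 3, 28 promoters passed, all with a lower change in the ethanol diet.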

How the data were processed

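The authors' deposited table gave log2 ratios of 713735 probes on every array. The direction of the ratio, its centring by the authors, the peak caller and the genome build are not given in the sources used here; the reference channel is input per the channel labels but IgG-precipitated DNA per the labelling text. Per the file headers, the authors' peak lists, 1 per array, give a peak score and an FDR (a q-value type measure), which reaches 0.19961 at most, so weaker peaks were not analysed here.

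All values were multiplied by −1, because the authors' peaks lay below 0 in the deposited table, and centred on the median of each array. Probes were joined into regions ending at gaps over 1000 bp, and in each the 500 bp window of at least 4 probes with the highest mean over all 20 arrays was averaged. Accessions of the peak lists were named through RefSeq (GRCr8): 13670 of 14678 matched, and 13193 of 14540 promoters were named. Differences were tested with limma 3.58.1 (R 4.3.3; 6 group means on 20 arrays, eBayes with trend), numbers of peaks with exact permutation tests (scipy 1.17.1). On simulated data for 6h against 0h in the ethanol diet, with 200 of 14540 promoters changed, the fit recovered 16% of changes of 0.4 log2 and 90% of changes of 0.8, with 3 false calls. The simulated arrays had independent errors of equal spread, unlike the real ones. The false calls therefore do not measure those among the promoters that passed. Promoters are listed by a rule: the 10 largest rises and falls among promoters with a gene name, an adjusted p under 0.05 and no overlap, up to 5 passing members of each gene list (otherwise the 2 with the smallest p), the 10 genes with the highest peak scores in each peak set, and the 3 promoters with the smallest p for the diet difference. Other promoters of NF-kB genes with values, among them Nfkbia, Rela, Ikbkb, Il6, Tnf, Sod2 and Map3k8, were added after their values were seen. The comparison, gene lists and rules were chosen with earlier results of these data known. Some members that this rule selects are not reported here.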

Additional observations from a re-analysis of the deposited data

Results flagged for a closer look

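The signal of the Axin1 promoter on 6h replicate 3, −0.717, stood far from the other arrays of 6h, at −0.31, −0.26 and −0.30, by Dixon's test. It lies on the same side of the 0h arrays as the others. About 1 in 20 groups is marked by this test by chance.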

How the results depend on the processing

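In the ethanol diet 145 promoters passed. The count was 764 after scaling arrays to equal spread, 837 with quantile normalization, 75 with a 1000 bp window, 8 with only the arrays compared, 574 with array run as a term, 52 with slide as a random block, 381 with the replicate block, 1621 with array weights and 86 without the arrays of the second run, which was chosen after seeing the data. It was 7 with the window chosen in the deposited direction (sign turned back, since a change of sign alone mirrors every value), and 0 in limma with the mean of the whole tiled region (3944 at an unadjusted p under 0.05) and with a window centred on the listed start (2145). Leaving out 1 array gave 0 to 1297. No centring, the animal as a block, windows chosen on other arrays and a minimum of 3 probes gave 139 to 157. The replicate numbers did not pair the arrays (r of their deviations −0.108, 0.011 and 0.189), and every one of the 145 also passed with the replicate block.

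In the carbohydrate diet 2999 passed, 715 with the window chosen in the deposited direction, 1423 with the mean of the region, 697 with the window on the start, 52 with array run as a term, 7277 with array weights and 507 to 4165 without 1 array. Rises made up 90.2% of these calls, 67.4% with scaled arrays, 79.3% with quantile normalization, 43.3% with the mean of the region, 34.6% with array run as a term and 3.5% with the window chosen in the deposited direction. The diet difference had 0 calls in limma except 2259 with array weights and 0 to 28 without 1 array. Genes bound at 6h alone numbered 87 and at 0h alone 15 at an FDR up to 0.05, 255 to 590 and 156 to 586 without 1 array. Leaving out an array can only keep or raise these counts. The mean number of peaks differed by 88.58 at that FDR and by −637.25 to 587.75 without 1 array, with no exact permutation p under 0.05.

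Single promoters changed sign as follows, and the cause was not tested. With the window on the start Axin1 gave 0.019, Pgap6 0.014, Zfp330 0.023, Ddc 0.036, Ahr 0.010, Gabra2 −0.268 and Lbx1 0.001. With the window of the deposited direction Zfp330 gave 0.018, Mars1 0.126 and Gabra2 −0.224. With a 1000 bp window Zfp330 gave 0.135 and Lbx1 0.242. With at least 3 probes Ly49s3 gave −0.208 and Vom2r65 0.725, and Vom2r65 gave 0.525 with scaled arrays and 0.591 with quantile normalization, which also gave 0.009 for Ddc.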
